A study of Mus musculus with 36 samples.

Results

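The Z-disc stretch and repair genes Ankrd1, Xirp1, Xirp2, Csrp3, Flnc, Fhl1, Synpo2l and Pdlim7 were followed in single cells of the injured mouse heart. They were taken by symbol as 8 of the 20720 nuclear genes in the count tables, and the list was chosen by levels already measured in these cells, among them those of Ankrd1 and Pdlim7 in cardiomyocytes after infarction. Single cardiac cells of 8-week-old male C57BL/6 mice, from the infarcted left ventricular region, had been sorted into multi-well plates and sequenced as unique molecular identifier (UMI) counts (SORT-seq). The groups were sham surgery at 1 and 14 days (4 and 8 plates), ischemia-reperfusion (IR, a 1-hour ligation of the left anterior descending artery) at 1, 3 and 14 days (9, 7 and 3 plates), and myocardial infarction (MI, permanent ligation of the same artery) at 3 days (5 plates). All sham plates belong to the IR experiment, so MI and its own experiment cannot be told apart. The question was how the members differed between sham and injured hearts in cardiomyocytes and in other cell classes.

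The Z-disc anchors the thin filaments of neighbouring sarcomeres and is the site where cardiomyocytes sense stretch. Ankrd1 is a titin-binding ankyrin repeat protein that is induced by mechanical load, and Fhl1 and Csrp3 (muscle LIM protein) are LIM-domain proteins that take part in stretch signalling. Flnc (filamin C) cross-links actin at the Z-disc, Xirp1 and Xirp2 bind filamin C and mark sites of myofibril damage, Synpo2l is a Z-disc protein of the synaptopodin family, and Pdlim7 is a PDZ and LIM adaptor that is also made outside muscle.

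The promoter windows of 4 members are shown because they hold a searched motif. The windows run from 250 bases before to 50 bases after a RefSeq start (GRCm38.p6), and 7 of the 8 members were matched, not Xirp1. Capitals mark an MCAT motif (CATTCC on either strand, bound by TEAD factors) in Ankrd1 and Flnc, a CArG box (bound by SRF) in Fhl1 and a MEF2 site in Xirp2.
Ankrd1, chr19:36119795-36120094, minus strand: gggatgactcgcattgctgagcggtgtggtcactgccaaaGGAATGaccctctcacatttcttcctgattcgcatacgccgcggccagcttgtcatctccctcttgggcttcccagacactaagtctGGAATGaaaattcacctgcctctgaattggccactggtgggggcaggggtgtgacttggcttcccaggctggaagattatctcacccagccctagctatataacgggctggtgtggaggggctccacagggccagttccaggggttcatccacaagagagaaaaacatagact
Flnc, chr6:29432903-29433202, plus strand: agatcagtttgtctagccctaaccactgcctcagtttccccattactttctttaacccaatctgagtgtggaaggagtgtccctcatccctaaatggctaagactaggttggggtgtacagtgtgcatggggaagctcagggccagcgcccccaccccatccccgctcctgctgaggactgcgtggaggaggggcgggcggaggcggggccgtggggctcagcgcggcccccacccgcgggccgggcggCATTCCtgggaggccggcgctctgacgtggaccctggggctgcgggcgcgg
Xirp2, chr2:67445752-67446051, plus strand: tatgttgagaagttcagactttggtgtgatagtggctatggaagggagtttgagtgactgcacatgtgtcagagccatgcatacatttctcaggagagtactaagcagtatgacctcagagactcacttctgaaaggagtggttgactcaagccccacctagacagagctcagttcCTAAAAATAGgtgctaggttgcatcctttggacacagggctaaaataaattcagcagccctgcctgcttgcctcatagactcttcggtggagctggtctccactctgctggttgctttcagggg
Fhl1, chrX:56779433-56779732, plus strand: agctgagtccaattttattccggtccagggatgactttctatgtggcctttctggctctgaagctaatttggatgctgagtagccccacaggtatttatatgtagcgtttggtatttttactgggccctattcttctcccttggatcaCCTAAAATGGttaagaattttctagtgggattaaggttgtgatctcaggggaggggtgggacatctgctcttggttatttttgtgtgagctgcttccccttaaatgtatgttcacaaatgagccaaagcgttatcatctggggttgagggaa

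The Ankrd1 window held 2 MCAT motifs, at -210 to -205 and -123 to -118 from the start, and the Xirp2 window held its MEF2 site at -74 to -65. The Fhl1 CArG box lay at -102 to -93, in 1 of its 2 windows. Each of the 2 Synpo2l windows held a MEF2 site, and no searched motif was found in the windows of Csrp3 and Pdlim7. Among all 32851 promoter windows of this length, 14.7% held an MCAT motif, 1.63% a CArG box and 3.19% a MEF2 site, so these matches are descriptions of the sequence only. The gene models (GRCm38) place Ankrd1 on chromosome 19 (36111961 to 36120099), Xirp1 on chromosome 9 (120013755 to 120023598), Xirp2 on chromosome 2 (67446002 to 67526614), Csrp3 on chromosome 7 (48830398 to 48848033), Flnc on chromosome 6 (29433256 to 29461883), Fhl1 on chromosome X (56731787 to 56793346), Synpo2l on chromosome 14 (20658946 to 20668354) and Pdlim7 on chromosome 13 (55495795 to 55513676).

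Plates held between 176614 and 5551870 UMIs, and 3146 of 13824 wells had at least 1000 nuclear UMIs. Clustering placed 1179 of these (1154 without sham day 14 replicate 7) in 4 clusters in which all 8 cardiomyocyte markers (Myh6, Tnnt2, Actc1 and others) were raised. In the 4 clusters sham hearts gave 238 cells at day 1 and 210 at day 14 without replicate 7 (235 with it), reperfused hearts 34, 299 and 354 cells at days 1, 3 and 14, and infarcted hearts 19. Sham day 14 replicates 2 and 7 held the same cells well by well (median correlation between wells of the same number 0.71 to 0.72) and were counted as 1 plate, and 32 further wells were copies of wells on other plates, some of another group. Leaving out these 32 wells, of which 2 were cardiomyocyte-like cells, ended 1 call on a member, that of Xirp1 at IR day 1. Further matching wells, in pairs of plates that shared only 1 to 3 of them, stayed in. Counts were summed over the cardiomyocyte-like cells of each plate with at least 5 of them, which left 4, 5, 3, 5, 3 and 2 plates in the groups in this order. Levels in cardiomyocytes are given as CPM (nuclear UMI counts scaled to a common library size) with TMM factors (scaled CPM), and fold changes as log2 ± SE from edgeR's quasi-likelihood test with Benjamini-Hochberg adjusted p over all 4325 genes tested. The mouse behind each plate is not stated (the methods give 3 mice per condition), so p-values measure the spread between plates.

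MI cardiomyocytes stood apart in more than the members. The mitochondrial share of their UMIs was 2.33% and 10.1% on the 2 plates, against 78.3% to 84.7% on sham plates, with 7364 and 13159 nuclear UMIs per cell against 1568 to 4210. All 19 MI cells and 26 of 34 IR day 1 cells lay in cluster 4, whereas 12 of 238 sham day 1 and 5 of 210 sham day 14 cells (without replicate 7) did. Of the MI cells, 17 of 19 carried UMIs of at least 3 markers of 1 other class, as did 10 of 34, 204 of 299 and 83 of 354 cells after reperfusion (days 1, 3 and 14) and 30 of 238 and 20 of 210 cells after sham surgery (days 1 and 14, without replicate 7). Fibroblast markers summed to 633 and 1992 CPM (without TMM factors) on the MI plates, 456 to 3150 at IR day 1, 536 to 5235 at IR day 3 and 110 to 951 on sham plates, with 6 of 7 markers seen in MI and at IR day 1 (Lum at 0). The neutrophil marker sums were 489 to 871 at IR day 1 and 31.6 to 401 on sham plates, and the macrophage marker sums were 185 to 923 at IR day 3 and 0 to 106 on sham plates. The part of these differences in the results on the members was not tested.

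One day after reperfusion Xirp2, Flnc, Fhl1 and Synpo2l lay 2.76 to 3.22 above sham on the log2 scale, at day 3 Ankrd1 and Fhl1 were higher, and at day 14 no member passed the test. At IR day 1, 6 of 8 members were called higher than sham day 1 and none lower, where 11.8% of all tested genes were called (3.42% higher and 8.37% lower). Their median log2 fold change was 2.39, against -0.55 over all genes. At IR day 3, 2 of 8 members were called, both higher (6.38% of all genes called, 4.37% higher and 2.01% lower), with medians of 0.78 for the members and -0.01 for all genes. At IR day 14 against sham day 14, 0 of 8 members and 0.208% of genes (0.185% higher and 0.0231% lower) were called by edgeR, 208 of the 4325 genes had an unadjusted p under 0.05 and DESeq2 called 1 gene, which was not a member. No member was called between the sham groups (0.786% of genes called, 0.717% higher and 0.0694% lower). The IR day 1 and IR day 3 comparisons and that of MI share sham plates. As the members were chosen with earlier results of these data known, their counts and medians beside all genes describe a chosen list.

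**Figure D1:**
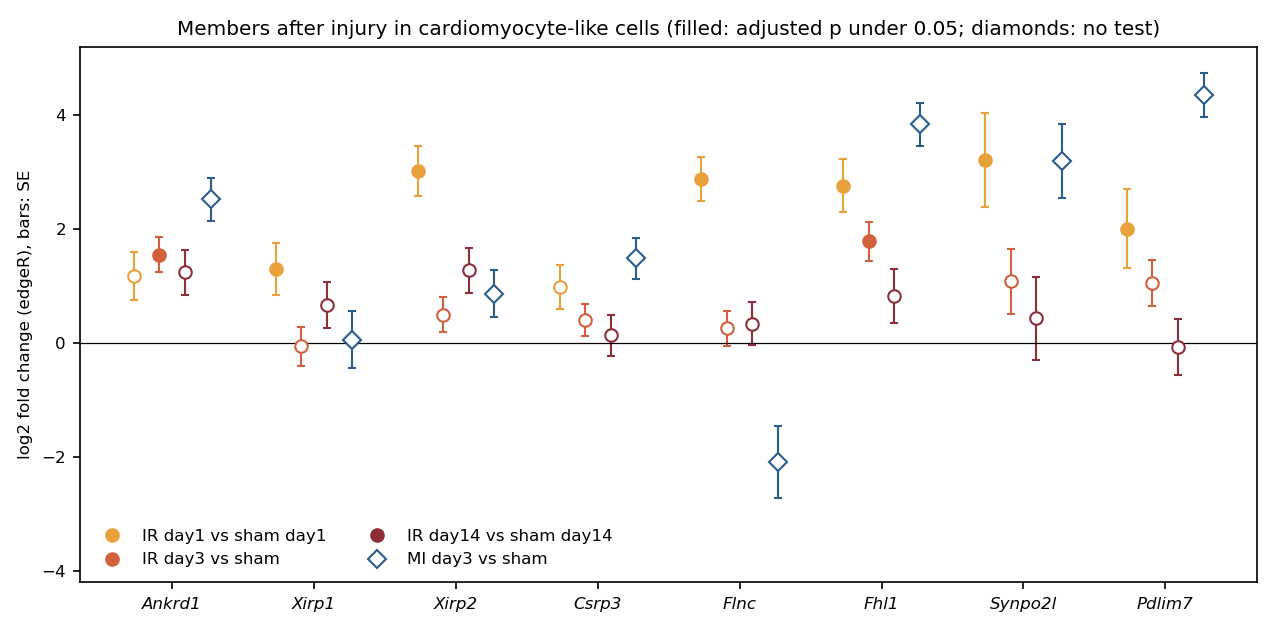
Log2 fold change (vertical axis, edgeR, bars are SE) of each member in cardiomyocyte-like cells against sham plates, with 1 colour per injury group and filled points where the adjusted p was under 0.05; the open diamonds of MI carry no test. Xirp2 and Flnc peak at IR day 1 (3.02 and 2.88), Pdlim7 in MI (4.36), and Flnc lies below 0 in MI (-2.09).

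Scaling moved the centre of these folds. With DESeq2's size factors (RLE) in place of TMM, the median of all genes went from -0.55 to 0.08 at IR day 1 and from -0.24 to 0.04 in MI, and the genes called higher and lower went from 148 and 362 to 307 and 117 at IR day 1 and from 589 and 937 to 799 and 765 in MI. Relative to the median gene, the IR day 1 folds were 3.77 for Synpo2l, 3.57 for Xirp2, 3.44 for Flnc, 3.32 for Fhl1, 2.57 for Pdlim7, 1.85 for Xirp1, 1.73 for Ankrd1 and 1.54 for Csrp3 on the log2 scale. The members Ankrd1 and Csrp3, which missed the threshold with TMM, passed it with RLE scaling (adjusted p 9.3e-04 and 3.6e-04).

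The values of MI against sham and against IR day 3 are given without a test, because results of these 2 comparisons were known when the members were chosen. In MI against sham, 5 members were among the genes called higher and Flnc among those called lower, where 35.3% of all genes were called (13.6% higher and 21.7% lower). In MI against IR day 3, Csrp3, Fhl1, Synpo2l and Pdlim7 were among the genes called higher and Flnc among those called lower, where 23.3% of all genes were called (7.19% higher and 16.1% lower). These counts only describe the choice of the members, and nothing is read from them. The members' median log2 fold change was 2.01 against sham and 1.03 against IR day 3, beside -0.24 and -0.28 for all genes.

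Ankrd1, the stretch-induced titin partner, was higher in every injured group than in sham by mean, and the test called it at IR day 3. Sham day 1 plates held 1134, 2808, 1971 and 1212 scaled CPM of Ankrd1, and sham day 14 plates held 851, 1329, 1238, 560.4 and 2973. The IR plates held 4144, 3042 and 4906 at day 1, 6642, 4561, 3061, 5147 and 4221 at day 3, and 3433, 2919 and 3866 at day 14. The MI plates held 5752 and 12695. All plates of IR day 1, IR day 3 and MI lay above all sham plates of their comparison, whereas IR day 14 overlapped sham day 14 at 2919 and 2973. Ankrd1 rose at IR day 3 by 1.55 ± 0.30 on the log2 scale (adjusted p 1.1e-04, and 0.93 with adjusted p 0.035 without cells carrying markers of another class) and did not pass at IR day 1 (1.18 ± 0.43, adjusted p 0.055) or day 14 (1.25 ± 0.40, adjusted p 0.38). The MI difference was 2.53 ± 0.38 from sham and 0.97 ± 0.44 from IR day 3. The level of Ankrd1 in MI was also among those by which the list was chosen. On the higher MI plate, 1 of 6 cells gave 65.3% of the Ankrd1 UMIs.

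**Figure D2:**
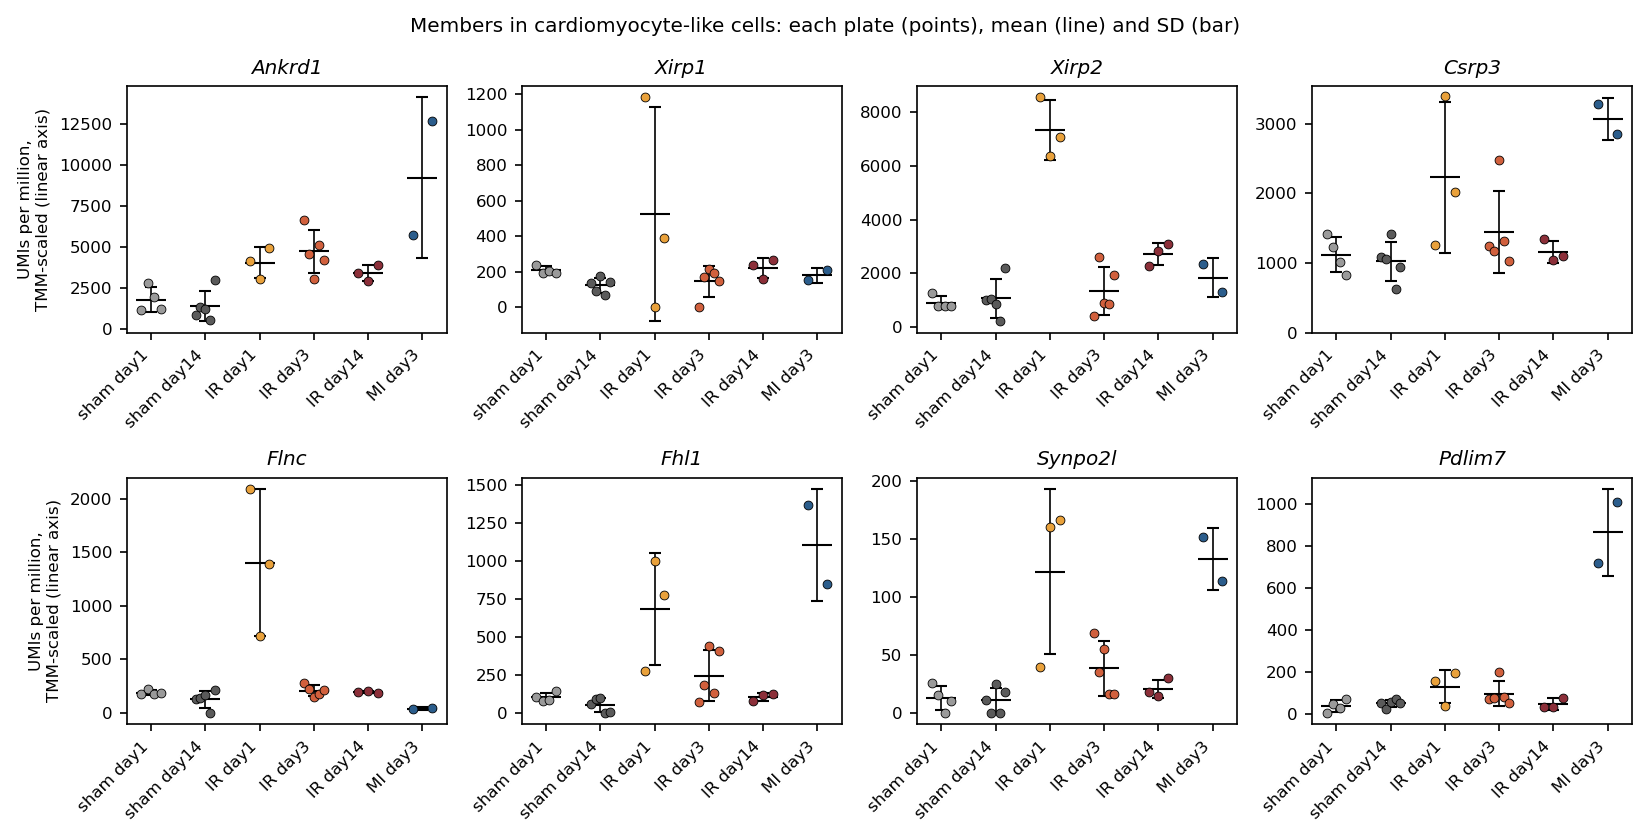
Scaled CPM (linear vertical axis) of each member in cardiomyocyte-like cells, with 1 point per plate and the mean and SD of each of the 6 groups. Xirp2 and Flnc are highest on the 3 IR day 1 plates, and Pdlim7 on the 2 MI plates (716 and 1010.4).

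Xirp2, a filamin C and actinin binding repeat protein of the intercalated disc and Z-disc, rose at IR day 1 without overlap. The IR day 1 plates held 8565, 6364 and 7096 scaled CPM of Xirp2, against 1261, 789, 786 and 781 on sham day 1 plates. Xirp2 was thus 3.02 ± 0.44 higher on the log2 scale (adjusted p 3.4e-07). On IR day 1 replicates 1, 2 and 3, however, 1 cell gave 42.4%, 53.5% and 38.7% of the Xirp2 UMIs. A UMI of Xirp2 was found in 6 of 6, 5 of 5 and 11 of 13 cells there. At IR day 14 the plates held 2285, 2827 and 3088, above all 5 sham day 14 plates (1006, 1031, 870.4, 210.1 and 2217), but the difference of 1.28 ± 0.40 did not pass (adjusted p 0.36), and it passed without cells carrying markers of another class (1.41, adjusted p 0.037). At IR day 3 the plates ranged from 415 to 2609 (0.50 ± 0.31, adjusted p 0.40), and the MI plates held 2366 and 1320.0, 0.87 ± 0.42 above sham. On IR day 3 replicate 4 (2609), 1 cell gave 33.6% of the Xirp2 UMIs, and on the 2 MI plates it was 78.9% and 58.0%. The IR day 1 call was lost without cells carrying markers of another class, where 1 IR day 1 plate remained and the median of all genes was -3.61 in place of -0.55 (0.91, adjusted p 0.58), and with plates of any number of cells (1.91, adjusted p 0.077).

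Flnc, the actin cross-linker of the Z-disc, went up at IR day 1 and was lowest in MI. Its IR day 1 plates held 2092, 720.5 and 1386 scaled CPM, and the sham day 1 plates held 174, 224, 177 and 185. The 2 groups did not overlap, and Flnc was 2.88 ± 0.38 higher on the log2 scale (adjusted p 2.2e-08). On IR day 1 replicates 1, 2 and 3, however, 1 cell gave 64.2%, 94.4% and 38% of the Flnc UMIs. At IR day 3 (146 to 277) and day 14 (186 to 202) Flnc lay near sham (0 to 224), with differences of 0.27 ± 0.31 and 0.34 ± 0.38 (adjusted p 0.71 and 0.998). The difference between the IR effect at day 1 and at day 14 was itself called for Flnc alone among the members (2.54 ± 0.54, adjusted p 0.0017, where 5.53% of genes were called, 0.925% higher and 4.6% lower), and with RLE scaling also for Xirp2, Fhl1 and Csrp3. That call was lost with no filter on low counts (2.01, adjusted p 0.051), with wells of at least 2000 UMIs (1.92, adjusted p 0.097) and without cells carrying markers of another class (1.85, adjusted p 0.28, where the median of all genes was -3.43). On the 2 MI plates Flnc had 3 UMIs each, 32.6 and 48.9 scaled CPM, below 8 of 9 sham plates, and the other sham plate had 0 UMIs of 10975 (its floor of 3 counts is 273 CPM). The MI fold of -2.09 ± 0.63 rests on these 6 UMIs.

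Xirp1, the smaller Xin repeat protein, did not follow Xirp2 in a stable way. Its IR day 1 plates held 1184, 0 and 388 scaled CPM (30, 0 and 14 UMIs), on both sides of the sham day 1 range of 193 to 240.0. The difference of 1.30 ± 0.46 was at the threshold (adjusted p 0.0497) and fell to 0.06 (adjusted p 0.96) without IR day 1 replicate 1. It was also lost without copied wells (adjusted p 0.050, 1.30). In the other groups Xirp1 stayed between 0 and 267, and the small IR day 3 difference from sham (-0.05 ± 0.34) changed sign with RLE scaling (0.07).

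Fhl1, a four-and-a-half LIM protein that binds titin, rose at IR days 1 and 3. The sham plates held 77.4 to 144 scaled CPM at day 1 and 0 to 98.1 at day 14. The IR day 1 plates held 276, 1001 and 776, and the IR day 3 plates held 69.2, 182, 437, 129 and 405. All IR day 1 plates lay above sham day 1, whereas 2 of the 5 IR day 3 plates lay within the sham range. On IR day 3 replicates 5 (437) and 7 (405), 1 cell gave 83.3% and 49.5% of the Fhl1 UMIs. All 7 Fhl1 UMIs of IR day 1 replicate 1 came from 1 cell. The log2 differences were 2.76 ± 0.46 (adjusted p 1.0e-05, and 2.21 with adjusted p 0.23 without cells carrying markers of another class, where the median of all genes was -3.61) and 1.79 ± 0.35 (adjusted p 8.5e-05). At IR day 14 Fhl1 was at 77.0, 120.0 and 124 (0.83 ± 0.48 from sham, adjusted p 0.998) and 1.34 ± 0.41 lower than at IR day 3 (adjusted p 0.044, log2 -1.34), the 1 member called between these days, where 3.65% of genes were called (0.994% higher and 2.66% lower). That call was lost without any of the 3 IR day 14 plates or without IR day 3 replicate 4, 5 or 7 (adjusted p 0.067 to 0.40). The MI plates held 1367 and 847, 3.84 ± 0.38 above sham and 2.05 ± 0.41 above IR day 3.

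Csrp3, the muscle LIM protein, passed the test at no IR day with TMM scaling. Its sham plates held 1414, 1230.1, 1008 and 832 scaled CPM at day 1 and 1084, 1054, 1416, 630.4 and 944 at day 14. The IR day 1 plates held 1263, 3402 and 2023, the IR day 14 plates 1340.3, 1046 and 1097, and the MI plates 3278 and 2852. The MI plates lay above all sham and IR day 3 plates, while the IR groups overlapped sham. The differences were 0.99 ± 0.39 at IR day 1 (adjusted p 0.081), 0.40 ± 0.28 at day 3 (adjusted p 0.47) and 0.14 ± 0.37 at day 14 (adjusted p 0.998). With RLE scaling Csrp3 did pass at IR day 1. Its MI difference was 1.49 ± 0.36 from sham and 1.09 ± 0.40 from IR day 3.

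Synpo2l, the synaptopodin-like Z-disc protein, rose at IR day 1 on few UMIs. Its sham plates held 0 to 25.5 scaled CPM (0 to 5 UMIs), with 0 UMIs on 3 of 9 plates. The IR day 1 plates held 39.5, 160.1 and 166 (1, 4 and 6 UMIs) and the MI plates 152 and 114 (14 and 7 UMIs), all above sham. Synpo2l was 3.22 ± 0.82 higher at IR day 1 (adjusted p 0.0051), a call lost without IR day 1 replicate 3 (2.89, adjusted p 0.083). At IR day 3 (1.09 ± 0.57, adjusted p 0.29) and day 14 (0.43 ± 0.72, adjusted p 0.998) it did not pass, and the MI difference was 3.20 ± 0.64.

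Pdlim7, the PDZ and LIM adaptor, had the highest MI fold of the members. Its level in MI was among those by which the list was chosen, so its MI values describe that choice. Its MI plates held 716 and 1010.4 scaled CPM, against 5.11 to 71.9 on sham day 1 plates, 22.9 to 70.0 on sham day 14 plates and 53.1 to 200.4 on IR day 3 plates. The MI plates stood above every other plate, 4.36 ± 0.39 above sham and 3.31 ± 0.43 above IR day 3. On MI replicate 3, 1 of 6 cells gave 77.4% of the Pdlim7 UMIs, and on MI replicate 2 it was 42.4%. At IR day 1 the plates held 158, 40.0 and 194 (4, 1 and 7 UMIs), overlapping sham day 1, and the difference of 2.01 ± 0.69 (adjusted p 0.043) was lost without sham day 1 replicate 1 or 3 or IR day 1 replicate 1 or 3 (1.55 to 1.93, adjusted p 0.080 to 0.30). At IR day 3 (1.05 ± 0.40, adjusted p 0.11) and day 14 (-0.06 ± 0.49, adjusted p 0.998) Pdlim7 did not pass. The IR day 3 difference did pass without cells carrying markers of another class (1.66, adjusted p 0.045) and with library size scaling (1.31, adjusted p 0.033).

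The order of the groups thus differed between members. By mean scaled CPM, Ankrd1, Csrp3, Fhl1, Synpo2l and Pdlim7 were highest in MI, and Xirp1, Xirp2 and Flnc at IR day 1. Neighbours in the order overlapped in nearly every case. The exceptions were IR day 1 over IR day 14 for Xirp2, IR day 1 over IR day 3 for Flnc, MI over IR day 1 for Pdlim7 and IR day 14 over sham day 1 for Ankrd1. Over the 22 plates, the gene with the highest Pearson r of log2 CPM was Tspo for Ankrd1 (0.82), Eef1d for Xirp1 (0.92), Akap2 for Xirp2 (0.81), Rpl12 for Csrp3 (0.88), Ncl for Flnc (0.85), Cfl1 for Fhl1 (0.89), Uck2 for Synpo2l (0.88) and Polr2l for Pdlim7 (0.87). These plates share groups and scaling, so the values are descriptions. Plates with 0 UMIs of a gene share a floor of 3.59 log2 CPM, so shallow plates can weigh on r. Xirp1 was at this floor on IR day 1 replicate 2 and IR day 3 replicate 3, which held 18414 and 6209 UMIs.

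Counts for other genes around the members are to be read beside the shares of all genes called. These were 3.42% higher and 8.37% lower at IR day 1. At IR day 3 they were 4.37% and 2.01%, and in MI 13.6% and 21.7%. Of 13 tested structural genes of the Z-disc, 0 were higher and 5 lower at IR day 1, where Tcap (telethonin, -2.24 ± 0.49, adjusted p 7.9e-04) and the formin Fhod3 (-2.12 ± 0.65, adjusted p 0.021) fell most, with a list median of -1.30 beside -0.55 for all genes. In MI, 2 were higher, Smpx (3.22 ± 0.34) and Myoz2 (1.43 ± 0.35), and 4 lower, led by Cmya5 (-3.82 ± 0.66) and Fhod3 (-2.38 ± 0.59). The summed cardiomyocyte markers were also lower at IR day 1, at 30115 to 43011 CPM (without TMM factors) against 56144 to 71112 on sham day 1 plates. Myh6 alone had 320 of 82840 UMIs at IR day 1, 197 of 123135 in MI and 16008 of 870293 in sham day 1. The part of this in the falls given here and below was not tested. Of 8 tested chaperones that act on filamin and the Z-disc, the small heat shock protein Hspb1 rose at IR day 1 (3.29 ± 0.45, adjusted p 6.5e-08), and Hspb1 (1.28 ± 0.32, adjusted p 0.0049) and Cryab (1.09 ± 0.30, adjusted p 0.013) rose at IR day 3. In MI 4 were higher, led by Hspb1 (2.90 ± 0.38) and Cryab (2.10 ± 0.38), and the co-chaperone Bag3 was lower (-1.26 ± 0.51). The list medians were 0.07 at IR day 1, 0.18 at IR day 3 and 0.87 in MI.

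Of 15 tested titin and stretch signalling genes, 4 rose and 2 fell at IR day 1, beside 3.42% of all genes higher and 8.37% lower. The matricellular YAP target Ctgf rose by 3.35 ± 0.53 (adjusted p 2.1e-06), and the ubiquitin ligase Fbxo32 (-3.47 ± 0.78, adjusted p 0.0012) and titin itself (Ttn, -2.13 ± 0.56, adjusted p 0.0065) fell. The Ankrd1 paralogue Ankrd2 also rose (adjusted p 0.017), from 0 UMIs on all sham day 1 plates to 4 UMIs at IR day 1. These 4 UMIs were 48.3 CPM without TMM factors (95% interval 13.2 to 124), against a floor of 3.45 CPM (3 counts over the sham group). The point value was 14.0 times this floor. At IR day 3 the calcineurin regulator Rcan1 (1.21 ± 0.35, adjusted p 0.017) and Ilk (1.16 ± 0.37, adjusted p 0.040) rose. In MI 5 were higher, with 15 UMIs of Ankrd2 against 0 in all sham plates (at least 61.7-fold) and Rcan1 at 2.39 ± 0.42, and 6 lower, led by Ttn (-5.72 ± 0.80) and Vcl (-3.05 ± 1.10). The list medians were 0.80 at IR day 1, 0.39 at IR day 3 and -0.86 in MI. Of 6 tested paralogues of the members, the filamin Flna rose (2.24 ± 0.60, adjusted p 0.0075) and Fhl2 fell (-1.93 ± 0.47, adjusted p 0.0036) at IR day 1, with a list median of -1.08, and Pdlim3 (3.43 ± 0.98) and Pdlim5 (1.66 ± 0.34) were higher in MI, with a median of 0.46. None of these lists had a gene called at IR day 14.

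**Figure D3:**
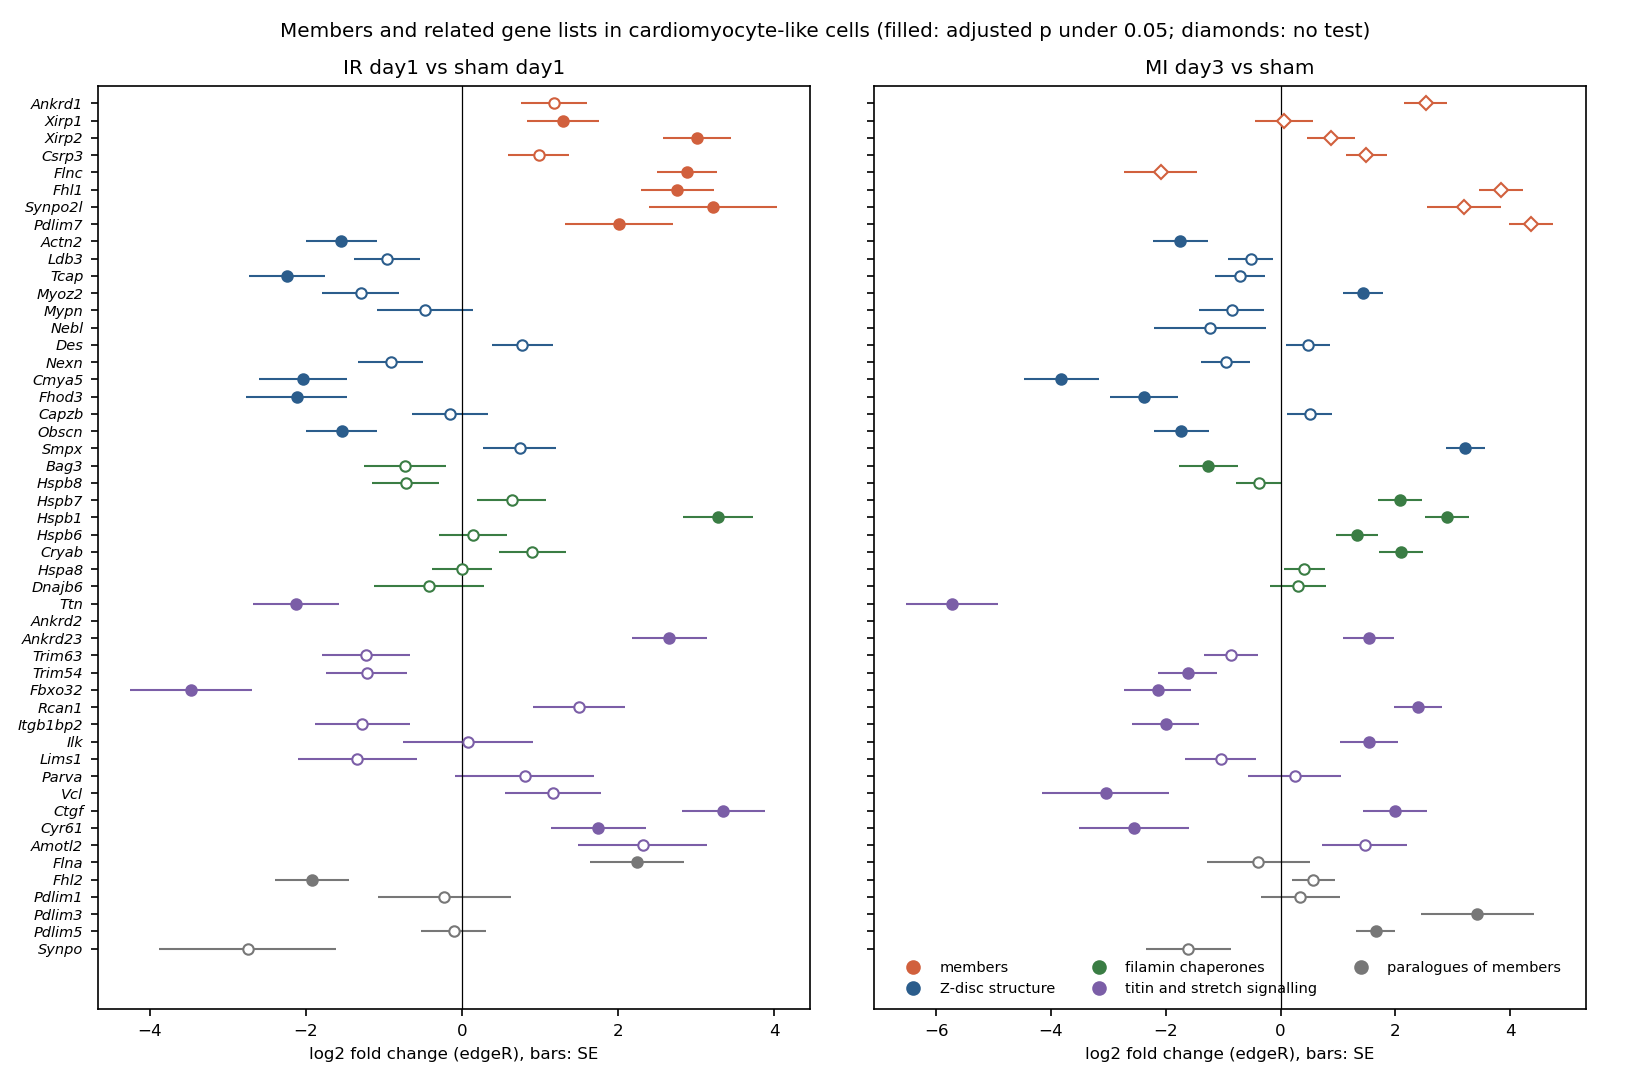
Log2 fold change (horizontal axis, edgeR, bars are SE) of the members and 4 related gene lists in cardiomyocyte-like cells at IR day 1 (left) and in MI (right), filled where the adjusted p was under 0.05, with open diamonds for the members in MI, which carry no test; genes with 0 UMIs in 1 group are not drawn. The members lie right of 0 at IR day 1, where the called Z-disc structural genes lie left of it.

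Among the cardiomyocyte-like cells, most members were highest in cluster 4, which was led by Sprr1a, Nppa, Nmrk2, Acta1 and also Ankrd1. These values are described without a test, since the clusters were made from the same genes, and are given as CPM pooled over cells without TMM factors (plain CPM), with the 25 cells of sham day 14 replicate 7 included. Ankrd1 had 6262 plain CPM in cluster 4 and 1379 to 2207 in clusters 0, 1 and 11, Fhl1 617 against 50.8 to 77.0, Pdlim7 290 against 26.1 to 65.1 and Synpo2l 74.1 against 8.88 to 19.3. Xirp2 had 2373 in cluster 0 and 2472 in cluster 4. Within cluster 4, Flnc had 1303 plain CPM in IR day 1 cells and 56.6 in MI cells, and Pdlim7 had 111 in IR day 1 cells and 1023 in MI cells. The 12 sham day 1 cells of cluster 4 held 109 UMIs of Ankrd1 (3324 plain CPM) and 0 of Pdlim7.

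**Figure D4:**
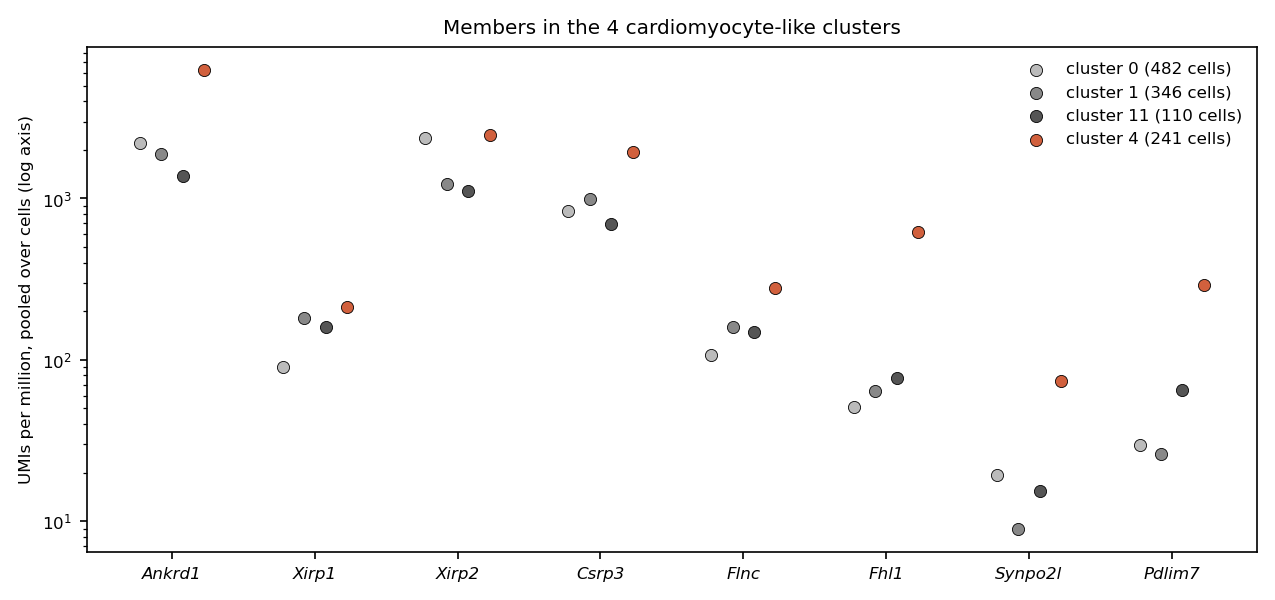
Plain CPM (log vertical axis) of each member pooled over the cells of the 4 cardiomyocyte-like clusters. Cluster 4 holds the highest value of all 8 members, with the widest gaps for Fhl1, Synpo2l and Pdlim7, and Xirp2 is nearly level with cluster 0.

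The shares of cells with a UMI were compared after thinning each cell to 1000 UMIs. Ankrd1 was found in 42.9% of thinned sham day 1 cardiomyocytes (exact 95% interval 36.5 to 49.4), 94.1% at IR day 1, 79.3% at IR day 3 (74.2 to 83.7), 74.9% at IR day 14 (70.0 to 79.3) and 19 of 19 MI cells. The unthinned shares were 66.8%, 97.1%, 93.0%, 89.3% and 100%, at median depths of 2266, 1996, 2436, 2330 and 8820 UMIs. Macrophages, which should lack Ankrd1, had thinned shares of 19.1% at IR day 3 and 4.26% in MI, at median depths of 8491 and 22834. Pdlim7 was found in 2.52% of thinned sham day 1 and 47.4% of MI cardiomyocytes (24.4 to 71.1), beside 7.09% of MI macrophages. The intervals cover counting error only.

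The members were also read in other cell classes, where levels are compared within a group. In sham hearts Ankrd1 had 1196 ± 570.0 plain CPM (SD, n = 9 plates) in cardiomyocyte-like, 248 ± 169 (n = 8) in endothelial-like, 129 ± 105 (n = 4) in macrophage-like and 36.1 ± 32.3 (n = 4) in fibroblast-like cells, and the cardiomyocyte plates (from 610.2) lay above the endothelial plates (up to 490.4). The Csrp3 plates of cardiomyocyte-like cells (569 to 4616 in all groups) lay above those of endothelial-like cells (0 to 350.0). In sham hearts Pdlim7 had 115 ± 73.8 (n = 4) in fibroblast-like, 55.6 ± 34.3 (n = 8) in endothelial-like, 38.3 ± 25.4 (n = 9) in cardiomyocyte-like and 35.5 ± 44.3 (n = 4) in macrophage-like cells, all overlapping. In MI its cardiomyocyte plates (836 and 1403) lay above the plates of fibroblast-like (238 ± 28.9), endothelial-like (215 ± 100.4), neutrophil-like (176 ± 95.1) and macrophage-like cells (90.4 ± 20.5, n = 5 for each), of which the highest was at 358. In sham hearts Fhl1 was highest in fibroblast-like cells, with 474 ± 89.7 plain CPM (SD, n = 4) against 55.6 ± 35.1 (n = 9) in cardiomyocyte-like cells, and it was 114 ± 34.2 (n = 5) in MI fibroblast-like cells. Flnc had 50.8 ± 18.8 (n = 4) in sham and 94.8 ± 44.9 (n = 5) in MI fibroblast-like cells.

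**Figure D5:**
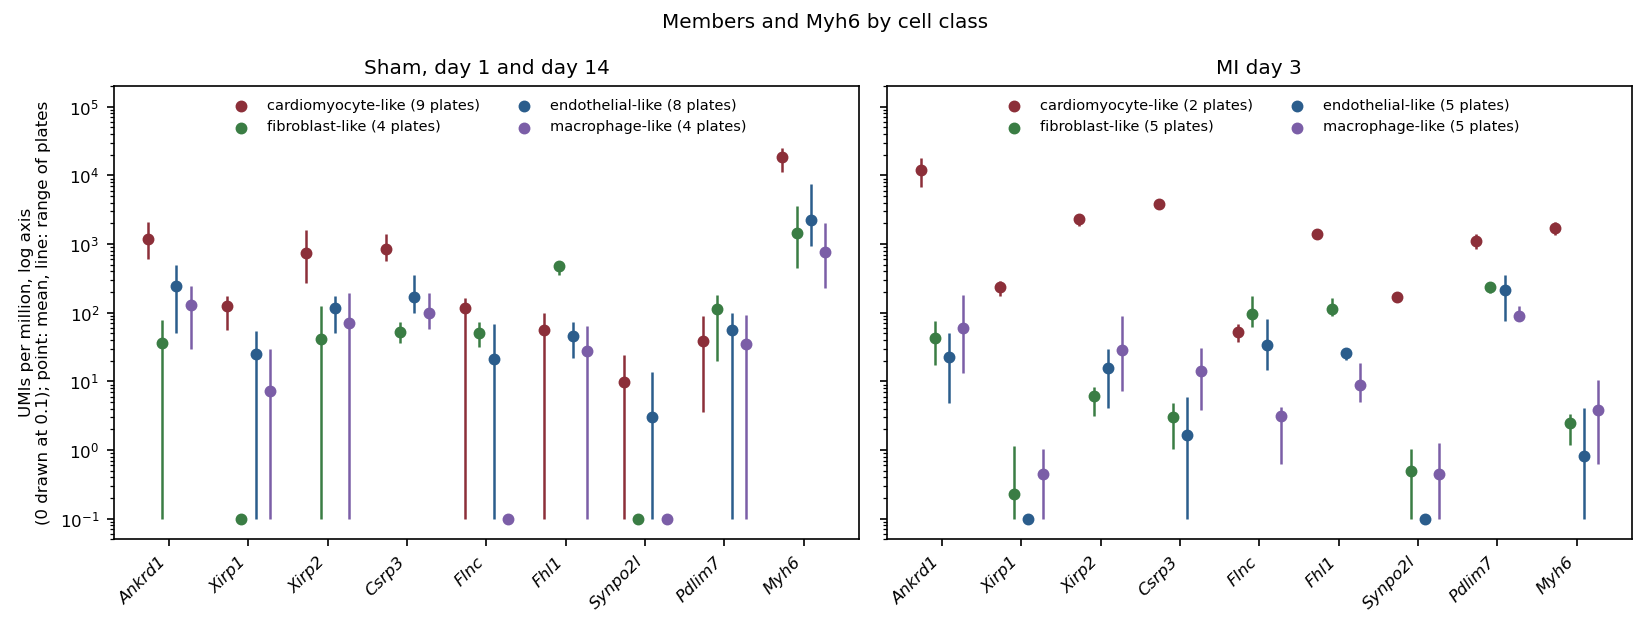
Plain CPM (log vertical axis, 0 drawn at 0.1) of each member and of Myh6 in 4 cell classes, with the mean as a point and the range over plates as a line, in sham (left) and MI (right). Myh6 outside cardiomyocytes falls from 2226 in sham to 0.82 in MI endothelial-like cells (1 UMI). Ankrd1, Xirp2 and Csrp3 are also lower there, while Pdlim7 is not.

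Myh6, the adult cardiac myosin heavy chain, was also read in the other classes. In sham plates Ankrd1 had 6.26 UMIs per 100 UMIs of Myh6 in cardiomyocyte-like cells, 12.5 in endothelial-like, 3.14 in fibroblast-like and 27.7 in macrophage-like cells, and Csrp3 had 4.41, 7.13, 4.48 and 16.9. Fhl1 had 0.31 in cardiomyocyte-like and 36.3 in fibroblast-like cells, Pdlim7 0.15 and 8.97, and Flnc 0.66 and 4.04. Between cardiomyocyte-like and fibroblast-like cells the ratio to Myh6 moved less for Csrp3 and Ankrd1 than for Fhl1, Pdlim7 and Flnc. This order did not hold in every class. Fhl1, Pdlim7 and Flnc had 2.11, 2.90 and 1.13 in endothelial-like cells and 3.61, 10.8 and 0 in macrophage-like cells. The cause of these ratios was not tested. The fibroblast ratios rest on 223 UMIs of Myh6 and the macrophage ratios on 83. Fibroblast-like cells held 7 UMIs of Ankrd1, 10 of Csrp3 and 9 of Flnc.

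Of the members in endothelial-like cells, 5 were tested in MI against sham and 4 were called (30.5% of 3925 genes called, 16.5% higher and 14.0% lower). Pdlim7 rose by 2.06 ± 0.36 on the log2 scale (adjusted p 3.8e-05), from a mean of 67.5 ± 50.8 (SD, n = 8) to 262 ± 119 (n = 5) scaled CPM, with ranges of 0 to 131 and 90.8 to 425 that overlapped. Ankrd1 (-3.89 ± 0.57, adjusted p 2.4e-06), Xirp2 (-3.21 ± 0.64, adjusted p 1.8e-04) and Csrp3 (-5.50 ± 0.64, adjusted p 3.1e-08) fell. Myh6 went from 2226 to 0.82 plain CPM, which is 1 UMI in MI. Whether these falls share a cause was not tested. Fhl1 did not pass (-0.61 ± 0.52, adjusted p 0.39). Of the endothelial-like cells, 80 of 86 sham day 1 cells were in cluster 5 and 53 of 57 MI cells in cluster 10, so cluster, group and experiment cannot be told apart here.

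In fibroblast-like cells, MI was compared with IR day 3, where 6 members were tested and 3 called (8.49% of 5934 genes called, 3.2% higher and 5.29% lower). Ankrd1 (-2.44 ± 0.47, adjusted p 0.0014), Xirp2 (-3.82 ± 0.63, adjusted p 2.9e-04) and Csrp3 (-4.72 ± 0.67, adjusted p 3.9e-05) fell, and Myh6 was at 461 in IR day 3 and 2.46 plain CPM in MI. Ankrd1 was not called without IR day 3 replicate 4 (-1.61, adjusted p 0.16). Pdlim7 had 216 to 292 scaled CPM on the 5 MI plates and 66.3 to 202 on the 4 IR day 3 plates, without overlap, but its difference of 0.83 ± 0.28 did not pass (adjusted p 0.062) except without IR day 3 replicate 5 (0.92, adjusted p 0.041). Flnc (0.75 ± 0.46, adjusted p 0.34) and Fhl1 (-0.95 ± 0.39, adjusted p 0.14) did not pass either, though Fhl1 did without IR day 3 replicate 5 (-1.19, adjusted p 0.043). Of these cells 131 of 132 MI cells were in cluster 6, against 36 of 56 at IR day 3, so the part of cluster and of experiment in these differences cannot be told apart.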

How the data were processed

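Single cells had been sorted into multi-well plates and sequenced with the SORT-seq protocol in 36 plates. Per the labels and the study's methods, the authors mapped reads with BWA to GRCm38 (mm10) and deposited raw UMI counts per gene and well, with 6-base UMIs read from the 3′ end, 1 table per plate and no correction for UMI collisions (no count in a table exceeds 4096). The annotation and filters are not given in the sources used here, and the strand setting neither.

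Wells with at least 1000 nuclear UMIs were clustered with scanpy 1.11.5 (2000 variable genes, 30 principal components, 15 neighbours, Leiden) and named from fixed markers raised at least 2-fold. Clusters with too few raised markers of any class, and small clusters with markers of 2 classes, stayed unnamed. They held 515 wells, 115 of them of IR day 1. The unnamed cluster 13 held 82 wells, 56 of IR day 1, with a median mitochondrial share of 89.05%. No doublet caller was run. Nuclear UMI counts were summed per plate and class over plates with at least 5 cells. All groups entered 1 fit of edgeR 4.0.16 (R 4.3.3), with TMM scaling, filterByExpr, the quasi-likelihood F test and Benjamini-Hochberg adjustment at 0.05 over all genes tested. MI and IR day 3 were set against both sham groups weighted equally, as there was no sham group at day 3. Alternatives were RLE scaling, DESeq2 1.42.0, other filters on genes, wells, cells and plates, a replicate block and leaving out each plate.

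The members and the related lists were chosen with earlier results of these data known. Named genes were the 8 members, at most 2 genes per list, comparison and direction with the largest absolute log2 fold change among those called, and the gene most like each member. Intervals are exact binomial at 95%, and floors are 3 counts. The fit was tested on simulated data. It recovered 1% of 2-fold rises at IR day 1, 26% at IR day 3, 10% at IR day 14 and 7% in MI. Of 8-fold rises it recovered 94% to 98%. A member that did not pass is therefore not shown to be unchanged.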

Additional observations from a re-analysis of the deposited data

Results flagged for a closer look

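Of 24 pairs of a member and a group of 4 or 5 plates, 3 had a plate far from the others of its group, where chance marks about 1 in 20. Xirp2 was at 1261 scaled CPM on sham day 1 replicate 1, while the other 3 plates lay between 781 and 789. On IR day 3 replicate 5 Csrp3 was at 2478 and Pdlim7 at 200.4 scaled CPM, above the other IR day 3 plates, and 1 cell gave 64.0% of the Csrp3 and 90.9% of the Pdlim7 UMIs there.

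The effect of IR on Flnc differed between day 1 and day 14 by 2.54 on the log2 scale in the test of the difference itself. In the clusters left unnamed, which entered no comparison, Xirp2 was at 526.2 plain CPM at IR day 14 and Pdlim7 at 196 plain CPM in MI, as means over plates.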

How the results depend on the processing

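Counts of calls and signs that moved are given here, and the cause was not tested. Counts of members called in MI cardiomyocyte-like cells are left out, as those comparisons carry no test of the members. Of the results under settings other than leaving out a plate and those added later, 671 kept direction and side of the threshold, 32 lost the call, 19 gained one and 26 changed sign. Library size scaling, plates with at least 1 cell and the replicate 7 table alone were chosen after seeing the data. MI could not be fitted without cells carrying 3 markers of another class, and 1 IR day 1 plate remained there. The replicate numbers did not pair the plates: correlations of the deviations of same-numbered plates lay between -0.08 and 0.14 over 29 pairs, so the replicate block below adjusts for a number only. Against sham day 14 alone, genes called were 153 for IR day 3 vs sham and signs turned to 0.24 for Xirp1 in IR day 3 vs sham. Against sham day 1 alone, signs turned to -0.23 for Xirp1 in MI vs sham. With RLE scaling, genes called were 115 for the day 1 to day 14 difference, members called were 4 for the day 1 to day 14 difference and signs turned to 0.074 for Xirp1 in IR day 3 vs sham and 0.63 for Ankrd1 in the day 1 to day 14 difference. With DESeq2, genes called were 1 for IR day 14 vs sham and 132 for the day 1 to day 14 difference, members called were 4 for the day 1 to day 14 difference and signs turned to 0.079 for Xirp1 in IR day 3 vs sham and 0.62 for Ankrd1 in the day 1 to day 14 difference. With no filter on low counts, genes called were 429 for IR day 3 vs sham and 16 for IR day 14 vs sham. For fibroblast MI vs IR day 3 they were 909. Members called were then 0 for IR day 14 vs day 3 and 0 for the day 1 to day 14 difference. Signs turned to -0.082 for Xirp1 in MI vs sham and 0.066 for Pdlim7 in IR day 14 vs sham. They also turned to -0.072 for Xirp1 in MI vs IR day 3 and 0.017 for Flnc in IR day 14 vs day 3. With at least 10 cells per plate, genes called were 175 for IR day 1 vs sham and 79 for the day 1 to day 14 difference, members called were 3 for IR day 1 vs sham and signs turned to 0.0054 for Pdlim7 in IR day 14 vs sham, 0.0054 for Flnc in IR day 14 vs day 3 and 0.13 for Ankrd1 in the day 1 to day 14 difference. With at least 2000 UMIs per well, genes called were 137 for IR day 3 vs sham, 110 for IR day 1 vs sham, 2 for IR day 14 vs sham, 74 for IR day 14 vs day 3, 14 for sham day 1 vs day 14 and 54 for the day 1 to day 14 difference, members called were 0 for IR day 14 vs day 3 and 0 for the day 1 to day 14 difference and signs turned to 0.16 for Xirp1 in IR day 3 vs sham, 0.0051 for Flnc in IR day 14 vs day 3 and 0.53 for Ankrd1 in the day 1 to day 14 difference. Without cells carrying 3 markers of another class, genes called were 35 for IR day 1 vs sham and 14 for the day 1 to day 14 difference, members called were 1 for IR day 1 vs sham, 1 for IR day 14 vs sham, 2 for IR day 14 vs day 3 and 0 for the day 1 to day 14 difference and signs turned to -1.52 for Synpo2l in IR day 3 vs sham, 0.036 for Pdlim7 in IR day 14 vs sham, 0.29 for Ankrd1 in IR day 14 vs day 3, 1.94 for Synpo2l in IR day 14 vs day 3, -0.11 for Xirp1 in the day 1 to day 14 difference and -0.50 for Xirp2 in the day 1 to day 14 difference. With the replicate block, genes called were 34 for IR day 3 vs sham and 5 for IR day 14 vs sham. They were 264 for MI vs IR day 3, 5 for IR day 14 vs day 3 and 13 for sham day 1 vs day 14. For the day 1 to day 14 difference they were 115, and for fibroblast MI vs IR day 3 126. Members called were then 1 for IR day 3 vs sham and 0 for IR day 14 vs day 3. Signs turned to 0.27 for Pdlim7 in IR day 14 vs sham and 0.19 for Synpo2l in sham day 1 vs day 14. With library size scaling, genes called were 108 for the day 1 to day 14 difference, members called were 3 for the day 1 to day 14 difference and signs turned to 0.21 for Xirp1 in IR day 3 vs sham, -0.14 for Csrp3 in sham day 1 vs day 14 and 0.49 for Ankrd1 in the day 1 to day 14 difference. With at least 1 cell per plate, genes called were 119 for IR day 3 vs sham, 5 for IR day 14 vs sham, 68 for IR day 14 vs day 3 and 19 for sham day 1 vs day 14, members called were 3 for IR day 1 vs sham, 0 for IR day 14 vs day 3 and 0 for the day 1 to day 14 difference and signs turned to -0.31 for Xirp1 in MI vs sham and -0.20 for Xirp1 in MI vs IR day 3. Without copied wells, signs turned to 0.0049 for Pdlim7 in IR day 14 vs sham. With replicate 2 alone of the plate counted 2 times, signs turned to 0.0018 for Ankrd1 in the day 1 to day 14 difference. Leaving out 1 plate at a time gave, in genes called, 225 to 484 for IR day 1 vs sham, 89 to 164 for IR day 14 vs day 3, 4 to 13 for IR day 14 vs sham, 151 to 284 for IR day 3 vs sham, 152 to 1145 for MI vs IR day 3, 497 to 1537 for MI vs sham, 90 to 245 for the day 1 to day 14 difference, 22 to 40 for sham day 1 vs day 14 and 236 to 685 for fibroblast MI vs IR day 3. Members called then ranged 3 to 6 for IR day 1 vs sham and 0 to 1 for IR day 14 vs day 3. They ranged 1 to 2 for the day 1 to day 14 difference and 2 to 5 for fibroblast MI vs IR day 3. Log2 folds that changed sign ranged -0.15 to 0.085 for Flnc in IR day 14 vs day 3, -0.58 to 0.25 for Pdlim7 in IR day 14 vs sham, -0.14 to 0.026 for Xirp1 in IR day 3 vs sham, -0.10 to 0.97 for Xirp2 in MI vs IR day 3, -0.60 to 0.19 for Ankrd1 in the day 1 to day 14 difference, -0.61 to 1.17 for Xirp1 in the day 1 to day 14 difference, -0.057 to 0.27 for Csrp3 in sham day 1 vs day 14, -1.05 to 0.23 for Synpo2l in sham day 1 vs day 14 and -0.53 to 0.13 for Xirp2 in sham day 1 vs day 14. Plates of 5 to 13 cells at IR day 1 and of 6 cells in MI, and few UMIs of Synpo2l, Pdlim7 and Flnc, limit these values.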
